A study of Homo sapiens with 24 samples.

Results

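ETV1, ETV4 and ETV5 make up the PEA3 subfamily of ETS transcription factors. They were taken as the 3 genes that carry these symbols in the deposited table, out of 34213 genes, of which 16076 passed the filter on low counts. All 3 passed it. RNA was sequenced from HEL cells, an erythroleukaemia line with an activating JAK2 mutation, so the solvent controls carry the mutation too. Each of the other groups received 500 nM of a JAK inhibitor for 48 h or 4 h: ruxolitinib, fedratinib, momelotinib, pacritinib or itacitinib. DMSO, the solvent, was given as control for the same times. The 12 groups had 2 libraries each, 24 in all, and all come from this 1 line.

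PEA3 factors bind DNA through an ETS domain and switch on genes for growth, migration and branching. Their genes are transcriptional outputs of the RAS-ERK pathway, which in cells with active JAK2 is driven alongside STAT signalling. The repressor CIC (capicua), which binds octamer sites at the genes it silences, holds ETV1, ETV4 and ETV5 down until ERK signalling relieves it. The PEA3 proteins are marked for degradation by the COP1-DET1 ubiquitin ligase.

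In GRCh38 coordinates (GENCODE 29), ETV1 (ENSG00000006468) lies at chr7:13891228-13991425, ETV4 (ENSG00000175832) at chr17:43527844-43579620 and ETV5 (ENSG00000244405) at chr3:186046308-186110318, all on the minus strand. Of the 3, ETV1 had a promoter sequence in the RefSeq table (GRCh38.p14), with 6 windows of 250 bases before to 50 bases after a start site. The windows were searched on both strands for the CIC octamers TGAATGAA, TGAATGGA, TCAATGAA and TCAATGGA, for the STAT motif TTCNNNGAA and for the ETS core CCGGAA. The window of the start site at 13991425, chr7:13991376-13991675 on the minus strand, is shown because it held a CIC octamer, TGAATGGA (capitals), 125 bases before the start. A CCGGAA lay 136 bases before the same start, not overlapping the octamer.
ETV1 promoter: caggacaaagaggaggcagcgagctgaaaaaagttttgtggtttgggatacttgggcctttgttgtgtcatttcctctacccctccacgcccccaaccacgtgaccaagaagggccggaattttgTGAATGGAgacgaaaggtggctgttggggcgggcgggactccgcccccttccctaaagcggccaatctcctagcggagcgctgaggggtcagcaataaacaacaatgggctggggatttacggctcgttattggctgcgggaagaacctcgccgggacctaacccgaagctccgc
Among 35116 such windows of all genes, 1.03% held TGAATGGA, 3.77% held any of the 4 octamers and 17.2% held CCGGAA. Of the 6 ETV1 windows, 1 held any of the 4 octamers. TTCNNNGAA, present in 7.66% of all windows, was found in 0 of the 6 ETV1 windows. Of 16 other ERK output genes listed for comparison, 11 had a window and 2 of those, DUSP6 and EPHA2, held a CIC octamer. Counted by gene, 4.62% of all 27305 genes with a window held one. DUSP6 encodes an ERK phosphatase whose level is given further on, and the 30 bases around one of its octamers (TCAATGGA read on the opposite strand, 24 bases before a start, chr12:89352507-89352536, minus strand) are set under those of ETV1 (chr7:13991532-13991561, minus strand), with the octamer in capitals.
ETV1: ccggaattttgTGAATGGAgacgaaaggtg
DUSP6: cggagaatgtaTCCATTGAgacgctcgctg
These matches describe letters in the windows and do not show that a factor was bound.

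Sequencing depth was 32153866 to 56618281 counts a library. Replicates differed by more than sampling noise in all 12 groups (chi-square divided by degrees of freedom 3.47 to 14.7). The labels do not say whether they came from separate cultures, so the spread between the 2 libraries of a group may be technical. The p-values rest on this spread pooled over all 12 groups and drawn toward that of other genes, not on the compared groups alone. The erythroid genes GATA1, KLF1, TAL1, HBG1, HBG2 and EPOR and the megakaryocyte genes ITGA2B, GP9, GP6 and PF4 were expressed, PF4 with at most 163 counts. CD3E and EPCAM, which mark T and epithelial cells, had at most 10 and 11 counts in any library, and the fibroblast gene COL1A1 at most 44. RN7SL RNAs, abundant noncoding transcripts, took 2.80 to 3.98% of counts with inhibitors for 4 h, against 2.42 and 2.52% with DMSO for 4 h. They took 3.10 to 4.76% with inhibitors for 48 h and 3.05 and 3.36% with DMSO for 48 h. Their part in the results was not tested.

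Ruxolitinib at 48 h was the 1 treatment with which all 3 PEA3 genes were called lower than with DMSO (edgeR quasi-likelihood test, adjusted p under 0.05 over all tested genes). There, 13.2% of tested genes were called lower. The level of ETV1 with this treatment overlapped with that of momelotinib and pacritinib at 4 h, where ETV1 was not called. The count of calls therefore does not show that ETV1 was lowered by this treatment alone. Pacritinib and momelotinib at 48 h each lowered ETV4 and ETV5, against 10.1% and 0.946% of all genes called lower. Itacitinib at 48 h lowered ETV5, where 0.355% of genes were called lower. Fedratinib at 48 h gave 0 calls among the 3, while 4.04% of genes were lower. Unadjusted p was under 0.05 for 1 of them, ETV1, and DESeq2 called 0.

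At 4 h, ruxolitinib, momelotinib and pacritinib each lowered ETV4 and ETV5, beside 5.04%, 3.79% and 17.4% of all genes called lower. Fedratinib and itacitinib at 4 h lowered ETV5, beside 0.97% and 0.106% of genes. Over the 10 comparisons with DMSO, ETV5 was lower in 9, ETV4 in 6 and ETV1 in 1, and none of the 3 was higher in any, at an adjusted or an unadjusted p under 0.05. The comparisons at one time share the same 2 DMSO libraries, so they are not independent of each other. Whether libraries overlap is given below as a description only. With 2 libraries a group, non-overlap can easily arise without a change, and its share over all genes was not computed. With fedratinib at 48 h, all 3 members did not overlap with DMSO and 0 were called. In bulk RNA, fewer cells with a transcript and less transcript per cell cannot be told apart.

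**Figure D1:**
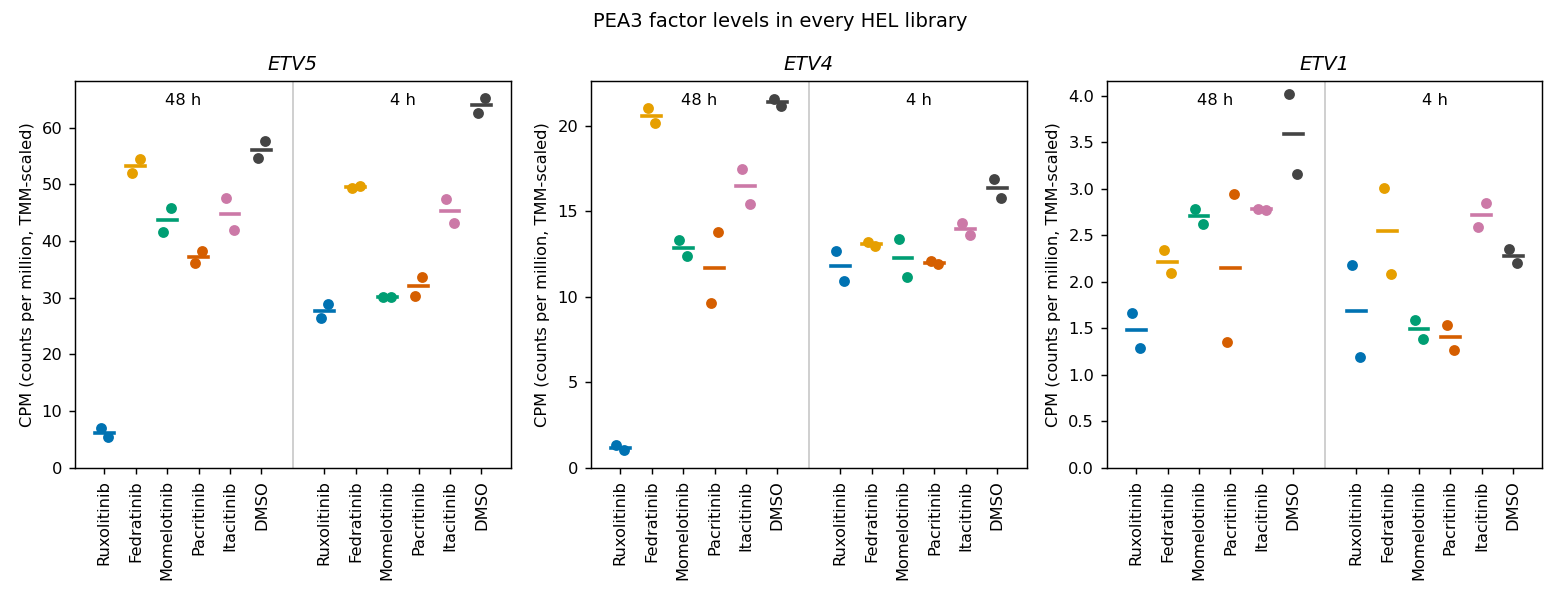
Level of ETV5, ETV4 and ETV1 in every library, in CPM (counts scaled to library size, linear axis from 0); points are libraries, bars are group means and the 2 times are divided by a line. Ruxolitinib at 48 h stood apart for ETV5 (6.95 and 5.35 CPM) and ETV4 (1.30 and 1.05 CPM), while ETV1 stayed under 4.1 CPM throughout.

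ETV5 was the most abundant member. Its level ranged from 0.922 to 11.2 RPKM (counts scaled to library size and exon length), against 0.291 to 5.99 RPKM for ETV4 and 0.124 to 0.417 RPKM for ETV1. Counts of 178 to 3002 for ETV5, 35 to 903 for ETV4 and 43 to 162 for ETV1 stood behind these levels. The median variation between the 2 libraries of a group was 5.18% for ETV5, 4.90% for ETV4 and 11.9% for ETV1, so small changes of ETV1 were the hardest to detect. Some ETS family members were far more abundant, with median levels of 101 RPKM for ETS1 and 69 RPKM for FLI1, against 7.34, 3.70 and 0.236 RPKM for ETV5, ETV4 and ETV1.

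After 48 h, ETV5 had 6.95 and 5.35 CPM with ruxolitinib, against 54.6 and 57.6 CPM with DMSO. Both ruxolitinib libraries lay far under both controls, with a log2 fold change of -3.18 ± 0.09 (SE, n = 2 libraries a group; edgeR adjusted p = 2.96e-22), or 11% of control. With pacritinib for 48 h ETV5 had 36.1 and 38.2 CPM, also below both DMSO libraries (-0.59 ± 0.08, edgeR adjusted p = 7.61e-07). Momelotinib gave 41.6 and 45.8 CPM (-0.36 ± 0.07, edgeR adjusted p = 0.00816) and itacitinib 47.7 and 42.0 CPM (-0.33 ± 0.07, edgeR adjusted p = 0.0322), again without overlap with DMSO. The momelotinib call was lost without DMSO replicate 2 (edgeR adjusted p = 0.156) or momelotinib replicate 1 (0.211). The itacitinib call was lost without either DMSO replicate (edgeR adjusted p = 0.181 without replicate 1 and 0.296 without replicate 2) or itacitinib replicate 2 (0.573). Fedratinib gave 52.0 and 54.4 CPM, just under the controls, and was not called (-0.08, 95% interval -0.23 to 0.07, edgeR adjusted p = 0.623).

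After 4 h, ETV5 had 26.5 and 28.9 CPM with ruxolitinib, 30.2 and 30.1 CPM with momelotinib and 30.4 and 33.7 CPM with pacritinib, against 62.6 and 65.3 CPM with DMSO. These 6 libraries all lay far under both controls, at 43.4%, 47.1% and 50.1% of control. The log2 fold changes were -1.20 ± 0.08, -1.09 ± 0.08 and -0.997 ± 0.08 (edgeR adjusted p = 2.14e-13, 7.45e-12 and 7.51e-12). Itacitinib gave 47.4 and 43.1 CPM (-0.50 ± 0.07, edgeR adjusted p = 4.12e-04) and fedratinib 49.4 and 49.7 CPM (-0.37 ± 0.07, edgeR adjusted p = 0.00521), both without overlap with DMSO. The itacitinib call was lost without itacitinib replicate 2 (edgeR adjusted p = 0.081). The fedratinib call was lost without DMSO replicate 2 (edgeR adjusted p = 0.133), fedratinib replicate 1 (0.0613) or fedratinib replicate 2 (0.0598).

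ETV4, the founding member of the subfamily, showed the steepest single decrease. It had 1.30 and 1.05 CPM with ruxolitinib for 48 h, against 21.6 and 21.2 CPM with DMSO. This was 5.53% of control (-4.18 ± 0.16, edgeR adjusted p = 5.4e-19), the lowest share of control of any member in these 10 comparisons. Pacritinib at 48 h gave 9.61 and 13.8 CPM, the widest gap between libraries of any ETV4 group, yet both lay below DMSO (-0.86 ± 0.11, edgeR adjusted p = 1.56e-06). Momelotinib gave 13.3 and 12.4 CPM (-0.73 ± 0.11, edgeR adjusted p = 3.38e-04). Itacitinib, with 17.5 and 15.4 CPM, lay under both controls without being called (-0.38, 95% interval -0.60 to -0.16, edgeR adjusted p = 0.13). Fedratinib, with 21.0 and 20.2 CPM, lay just under DMSO (-0.05, 95% interval -0.27 to 0.17, edgeR adjusted p = 0.838).

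At 4 h the log2 fold changes of ETV4 lay nearer to 0 than those of ETV5, a difference between genes that was not tested. ETV4 had 12.7 and 10.9 CPM with ruxolitinib, 13.4 and 11.2 CPM with momelotinib and 12.1 and 11.9 CPM with pacritinib, against 16.9 and 15.8 CPM with DMSO. None of these 6 libraries overlapped with the controls, and the log2 fold changes were -0.47 ± 0.12, -0.41 ± 0.11 and -0.44 ± 0.11 (edgeR adjusted p = 0.00741, 0.0236 and 0.0032). The ruxolitinib call was lost without DMSO replicate 1 (edgeR adjusted p = 0.069) or ruxolitinib replicate 2 (0.181). The momelotinib call was lost without DMSO replicate 1 (edgeR adjusted p = 0.153), DMSO replicate 2 (0.0719) or momelotinib replicate 2 (0.258). Fedratinib (13.2 and 13.0 CPM, -0.32, 95% interval -0.55 to -0.09) and itacitinib (14.3 and 13.6 CPM, -0.22, 95% interval -0.46 to 0.01) lay below DMSO and were not called (edgeR adjusted p = 0.174 and 0.486). ETV4 shares 68 exon bases with DHX8 on the opposite strand and ETV5 shares 164 with DGKG on its own strand. The strandedness of the counting is not given in the sources used here, so reads in these bases could belong to either gene.

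ETV1 was scarce and was called in 1 of the 10 comparisons with DMSO. It had 1.67 and 1.29 CPM with ruxolitinib for 48 h, against 4.01 and 3.16 CPM with DMSO. The libraries did not overlap and ETV1 fell to 41.4% of control (-1.27 ± 0.28, edgeR adjusted p = 7.82e-04). This control lay above DMSO for 4 h (2.36 and 2.20 CPM), a difference that was not called. The ruxolitinib libraries at 48 h overlapped with momelotinib (1.59 and 1.38 CPM) and pacritinib (1.54 and 1.26 CPM) at 4 h. Neither of those was called against DMSO for 4 h. Pacritinib for 48 h gave 1.35 and 2.94 CPM, with 1 library near ruxolitinib and 1 near DMSO, and was not called (-0.72, edgeR adjusted p = 0.058). Without pacritinib replicate 2 it was (-1.41, edgeR adjusted p = 0.00261). Fedratinib (2.34 and 2.09 CPM, -0.70), momelotinib (2.78 and 2.62 CPM, -0.41) and itacitinib (2.78 and 2.77 CPM, -0.37) at 48 h all lay below both controls and were not called (edgeR adjusted p = 0.109, 0.486 and 0.62).

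At 4 h ETV1 had 2.18 and 1.19 CPM with ruxolitinib, 1.59 and 1.38 CPM with momelotinib and 1.54 and 1.26 CPM with pacritinib, against 2.36 and 2.20 CPM with DMSO. These lay under the controls, by -0.45, -0.61 and -0.70 on the log2 scale, but none was called (edgeR adjusted p = 0.421, 0.253 and 0.0657). Fedratinib (3.0 and 2.08 CPM) overlapped with DMSO and itacitinib (2.59 and 2.84 CPM) lay above it, with intervals of the log2 fold change of -0.39 to 0.70 and -0.29 to 0.81 (edgeR adjusted p = 0.87 and 0.799). For ETV1 the intervals were wide, and a missed threshold does not show that its level was unaffected.

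**Figure D2:**
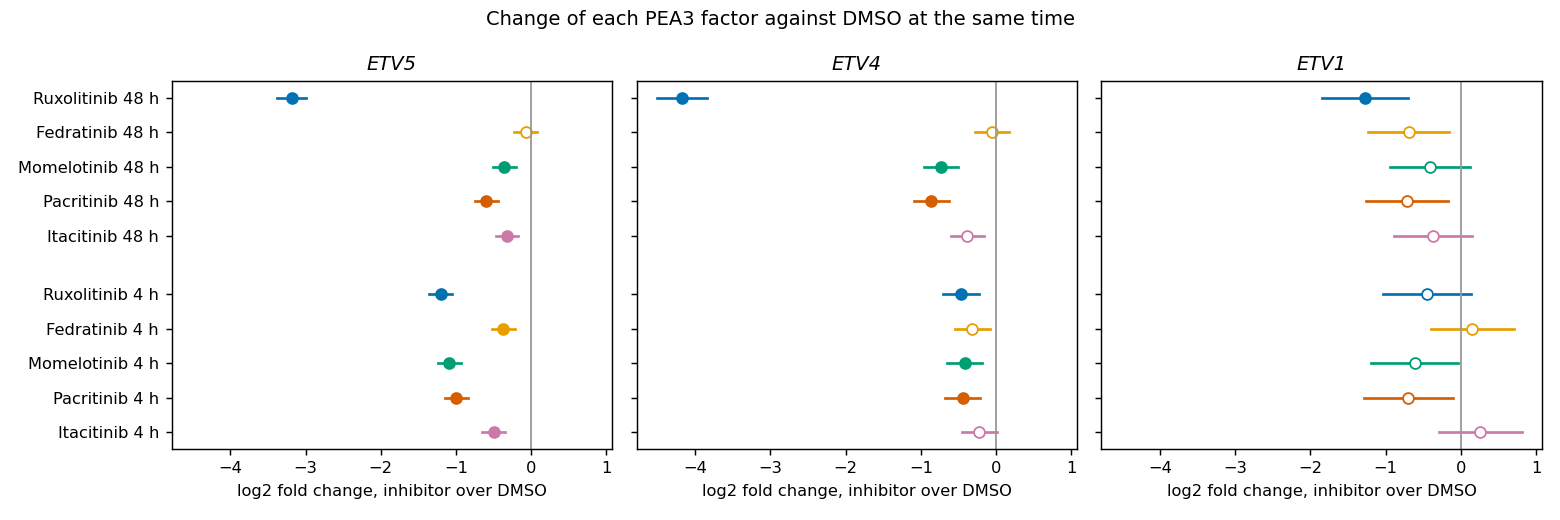
Log2 fold change of ETV5, ETV4 and ETV1 with each inhibitor over DMSO at the same time; bars are 95% intervals and filled points passed an adjusted p of 0.05. Ruxolitinib at 48 h lies far to the left for ETV4 (-4.18) and ETV5 (-3.18), and the ETV1 intervals are the widest.

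In the order of group means, ETV5 was lowest with ruxolitinib for 48 h (6.15 ± 1.13 CPM, SD, n = 2), then ruxolitinib (27.7 ± 1.74), momelotinib (30.1 ± 0.07) and pacritinib (32 ± 2.35) at 4 h. Next came pacritinib (37.1 ± 1.51) and momelotinib (43.7 ± 2.92) at 48 h, itacitinib at both times (44.8 ± 4.00 at 48 h, 45.3 ± 3.04 at 4 h) and fedratinib at both times (53.2 ± 1.68 at 48 h, 49.6 ± 0.24 at 4 h). The DMSO groups were the highest (56.1 ± 2.12 CPM at 48 h, 63.9 ± 1.87 CPM at 4 h). Neighbours in this order overlapped in their libraries only among momelotinib at 48 h and the itacitinib groups. The highest group mean was 10.4 times the lowest for ETV5, 18.2 times for ETV4 and 2.56 times for ETV1. For ETV4, ruxolitinib for 48 h (1.18 ± 0.18 CPM) was separate from all others, the next 6 groups (pacritinib at 48 h to fedratinib at 4 h, 11.7 to 13.1 CPM) overlapped each with its neighbour, and fedratinib (20.6 ± 0.60 CPM) and DMSO (21.4 ± 0.30 CPM) at 48 h were highest. For ETV1, only DMSO at 48 h (3.59 ± 0.61 CPM) was separate from its neighbour, itacitinib at 48 h.

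Without inhibitor, ETV4 was higher at 48 h (21.6 and 21.2 CPM) than at 4 h (16.9 and 15.8 CPM), by 0.39 ± 0.11 on the log2 scale (edgeR adjusted p = 0.0224), in a comparison that called 4.04% of genes higher. Without any 1 of these 4 libraries the call was lost (edgeR adjusted p = 0.0672 and 0.21 without replicate 1 and 2 at 4 h, 0.128 and 0.104 without replicate 1 and 2 at 48 h). ETV5 (54.6 and 57.6 CPM at 48 h, 62.6 and 65.3 CPM at 4 h, -0.19, edgeR adjusted p = 0.107) and ETV1 (4.01 and 3.16 CPM at 48 h, 2.36 and 2.20 CPM at 4 h, 0.66, edgeR adjusted p = 0.125) did not overlap between the times and were not called.

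The effect of ruxolitinib deepened with time for ETV4 and ETV5. The change against DMSO at 48 h minus that at 4 h was -3.71 ± 0.21 for ETV4 and -1.98 ± 0.12 for ETV5 on the log2 scale (edgeR adjusted p = 6.72e-14 and 8.16e-13), where 4.4% of genes had a lower change at 48 h. For ETV1 it was -0.82 ± 0.40 (edgeR adjusted p = 0.241). For ETV5 the effect of momelotinib was smaller at 48 h than at 4 h, by 0.73 ± 0.11 (edgeR adjusted p = 6.69e-05, 1.57% of genes called in this direction), and so was that of pacritinib, by 0.40 ± 0.11 (edgeR adjusted p = 0.00739, 10.3% of genes). The pacritinib difference was lost without pacritinib replicate 1 at 4 h (edgeR adjusted p = 0.0616) or pacritinib replicate 2 at 48 h (0.0519). ETV4 with pacritinib went the other way without being called (-0.42 ± 0.16, edgeR adjusted p = 0.0708), and was called without pacritinib replicate 2 at 48 h (-0.72, edgeR adjusted p = 0.00249). With fedratinib and itacitinib 0 members were called, beside 4.12% and 0.0124% of genes. Unadjusted p was under 0.05 there for ETV1 (-0.85) and ETV5 (0.29) with fedratinib. DESeq2 did not call ETV4 or ETV5 with fedratinib, or ETV5 with itacitinib. It gave no adjusted p for ETV1 with either inhibitor, or for ETV4 with itacitinib.

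All inhibitors were given at the same dose, so they were also set against each other, in 20 pairs at matched time. Ruxolitinib against fedratinib, momelotinib, pacritinib and itacitinib called 20.6%, 21%, 24.6% and 21.9% of all tested genes at 48 h, and 3.52%, 0.722%, 25.6% and 5.9% at 4 h. Fedratinib against momelotinib, pacritinib and itacitinib called 6.68%, 12% and 5.94% at 48 h, and 1.41%, 28.7% and 0.261% at 4 h. Momelotinib against pacritinib and itacitinib called 8.07% and 1.01% at 48 h, and 20.7% and 2.76% at 4 h, while pacritinib against itacitinib called 15.6% at 48 h and 29.1% at 4 h. Beside these shares, ETV5 differed in 14 pairs, ETV4 in 7 and ETV1 in 4, or in 16, 9 and 6 with p-values adjusted over the 20 pairs of each gene. At 48 h ruxolitinib differed from every other inhibitor in ETV5 (-3.11 to -2.59) and ETV4 (-4.12 to -3.32). ETV1 with ruxolitinib at 48 h was below momelotinib (-0.86 ± 0.29, edgeR adjusted p = 0.0293) and itacitinib (-0.90 ± 0.28, edgeR adjusted p = 0.0179). Those 2 ETV1 differences were lost without ruxolitinib replicate 2 (edgeR adjusted p = 0.215 and 0.169) and without either library of the other inhibitor (0.111 and 0.0826 without momelotinib replicates 1 and 2, 0.0603 and 0.063 without itacitinib replicates 1 and 2).

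Ruxolitinib and itacitinib are built on a shared pyrrolopyrimidine core, and itacitinib is the more selective for JAK1. At 48 h ETV5 had 6.95 and 5.35 CPM with ruxolitinib and 47.7 and 42.0 CPM with itacitinib (-2.86 ± 0.09, edgeR adjusted p = 7.71e-21). ETV4 had 1.30 and 1.05 CPM with ruxolitinib and 17.5 and 15.4 CPM with itacitinib (-3.80 ± 0.17, edgeR adjusted p = 1.22e-17). With ETV1, all 3 members were lower with ruxolitinib at 48 h. At 4 h ETV5 was lower with ruxolitinib by -0.70 ± 0.08 on the log2 scale (edgeR adjusted p = 1.3e-07). For ETV4 the difference at 4 h was -0.25 (95% interval -0.49 to -0.0048, edgeR adjusted p = 0.247) and for ETV1 -0.71 (95% interval -1.29 to -0.13, edgeR adjusted p = 0.146), neither called.

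At 4 h ruxolitinib, momelotinib and pacritinib were close to each other in ETV5. The difference was -0.12 between ruxolitinib and momelotinib (95% interval -0.28 to 0.04, edgeR adjusted p = 0.758), -0.21 between ruxolitinib and pacritinib (-0.37 to -0.04, edgeR adjusted p = 0.054) and -0.09 between momelotinib and pacritinib (-0.25 to 0.07, edgeR adjusted p = 0.475). The middle one passed the threshold in 6 of 10 alternative fits, 1 of them without pacritinib replicate 1 (-0.28, edgeR adjusted p = 0.0341). Each of these 3 inhibitors held ETV5 lower than fedratinib and itacitinib at 4 h, ruxolitinib by -0.84 ± 0.08 and -0.70 ± 0.08 (edgeR adjusted p = 2.78e-09 and 1.3e-07). None of the 10 pairs at 4 h was called for ETV4, at an adjusted p by edgeR or DESeq2; the unadjusted p was under 0.05 in 1, ruxolitinib against itacitinib. ETV1 at 4 h was higher with fedratinib than with pacritinib (0.85 ± 0.28, edgeR adjusted p = 0.0226) and lower with pacritinib than with itacitinib (-0.96 ± 0.29, edgeR adjusted p = 0.0106). The fedratinib difference was lost without fedratinib replicate 1 (edgeR adjusted p = 0.234) or pacritinib replicate 2 (0.165), the itacitinib one without pacritinib replicate 2 (0.113) or itacitinib replicate 2 (0.0631).

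At 48 h fedratinib was separate from pacritinib, with 0.52 ± 0.08 more ETV5 and 0.81 ± 0.11 more ETV4 on the log2 scale (edgeR adjusted p = 9.33e-06 and 5.83e-06). It was also above momelotinib in ETV4 (0.68 ± 0.11, edgeR adjusted p = 1.14e-04) and ETV5 (0.28 ± 0.07, edgeR adjusted p = 0.0149), and above itacitinib in ETV5 (0.25 ± 0.07, edgeR adjusted p = 0.0364). The ETV5 difference from momelotinib was lost without fedratinib replicate 2 (edgeR adjusted p = 0.152) or momelotinib replicate 1 (0.258). That from itacitinib was lost without fedratinib replicate 1 (edgeR adjusted p = 0.138), fedratinib replicate 2 (0.202) or itacitinib replicate 2 (0.443). Pacritinib was below itacitinib in ETV4 (-0.48 ± 0.11, edgeR adjusted p = 0.0034) and ETV5 (-0.27 ± 0.08, edgeR adjusted p = 0.0126). Both of these were lost without pacritinib replicate 1 (edgeR adjusted p = 0.212 and 0.14) or itacitinib replicate 1 (0.0556 and 0.201). ETV5 with momelotinib was above pacritinib without being called (0.24, 95% interval 0.08 to 0.39, edgeR adjusted p = 0.0524), and passed the threshold in 5 of 10 alternative fits.

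**Figure D3:**
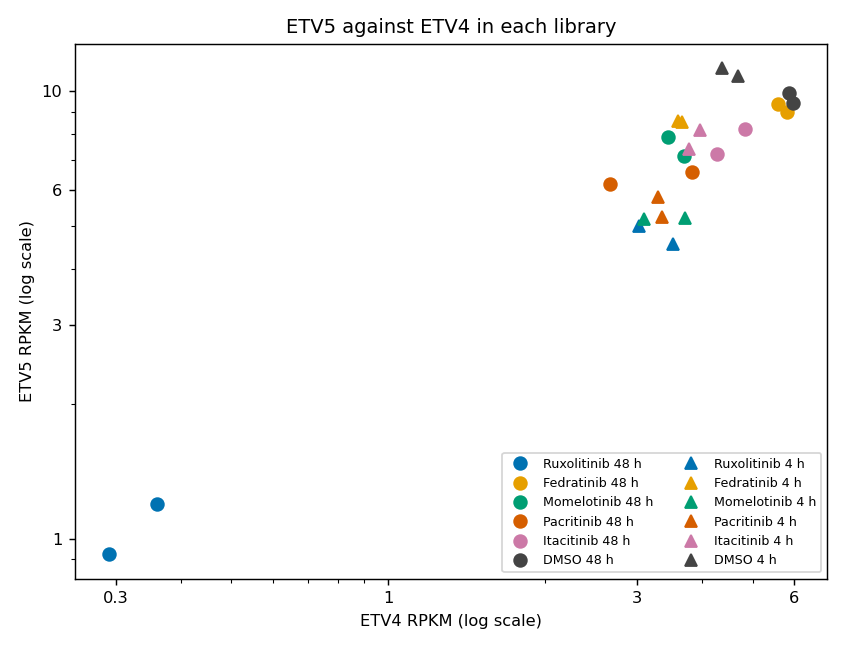
ETV5 against ETV4 in each library, in RPKM on log axes; colours are treatments, circles 48 h and triangles 4 h. The 2 libraries with ruxolitinib for 48 h lie apart at the lower left (ETV4 under 0.4 RPKM), and at 4 h ruxolitinib, momelotinib and pacritinib lie below DMSO in ETV5 more than they lie to its left in ETV4.

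The RPKM ratio of ETV5 to ETV4 was 3.32 and 3.16 with ruxolitinib for 48 h, against 1.57 and 1.69 with DMSO for 48 h. At 4 h it was 1.30 and 1.65 with ruxolitinib, against 2.31 and 2.57 with DMSO. Momelotinib (1.94 and 2.29) and pacritinib (2.33 and 1.72) at 48 h also lay above DMSO, whereas fedratinib (1.54 and 1.68) and itacitinib (1.70 and 1.69) overlapped with it. Momelotinib (1.4 and 1.68), pacritinib (1.56 and 1.76) and itacitinib (2.06 and 1.97) at 4 h lay under DMSO, whereas fedratinib (2.32 and 2.38) fell within its range. Ruxolitinib, momelotinib and pacritinib libraries thus lay above their controls at 48 h and below them at 4 h. The RPKM ratio of ETV4 to ETV1 was 2.08 and 2.17 with ruxolitinib for 48 h, against 14.3 and 17.9 with DMSO for 48 h, and it was 11.7 to 25.7 in the libraries other than ruxolitinib at 48 h. These ratios are given as a description, with no test.

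**Figure D4:**
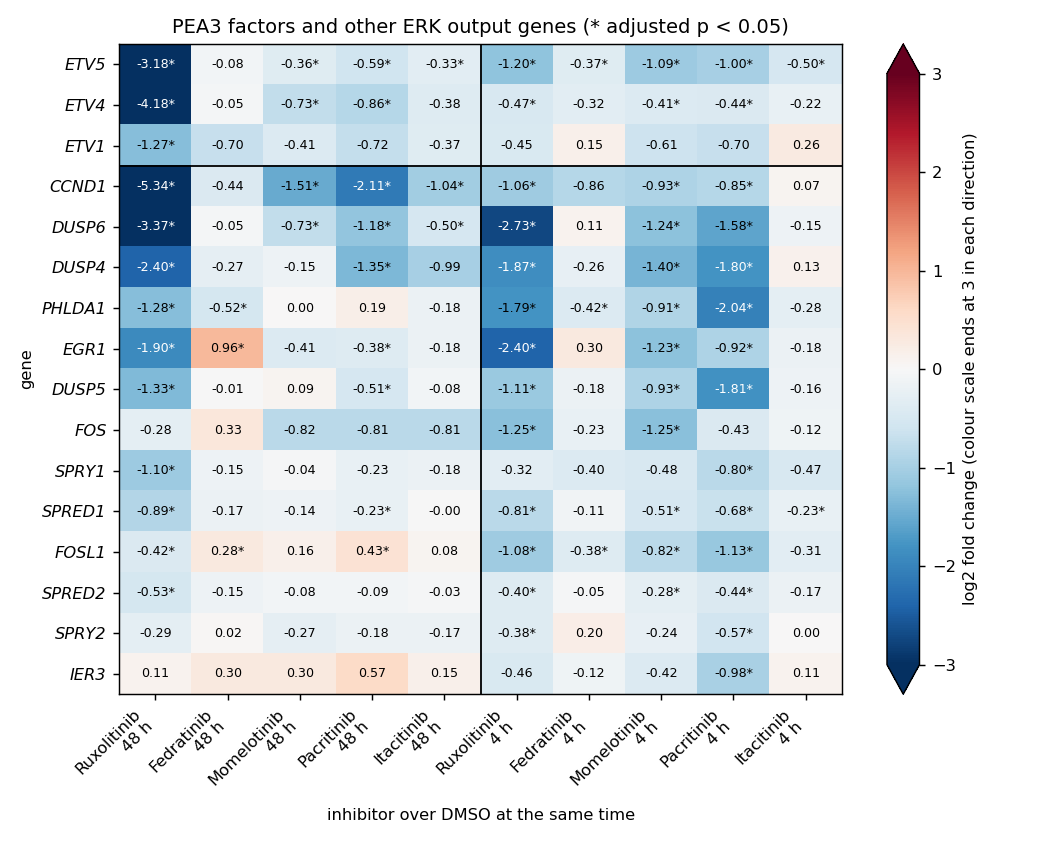
Log2 fold change over DMSO at the same time (colour and printed value) of the PEA3 members, above the line, and of 13 other ERK output genes; an asterisk marks an adjusted p under 0.05 and the colour scale ends at 3 in each direction. With ruxolitinib at 48 h CCND1 (-5.34), ETV4 (-4.18), DUSP6 (-3.37) and ETV5 (-3.18) lie past the end of the colour scale.

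The other ERK output genes in the list were feedback phosphatases (DUSP4, DUSP5, DUSP6), Sprouty and SPRED inhibitors (SPRY1, SPRY2, SPRED1, SPRED2), early transcription factors (EGR1, FOS, FOSL1), IER3, PHLDA1 and the cyclin gene CCND1. These 13 were tested, and SPRY4, EPHA2 and EPHA4, with at most 14 counts in a library, were not. With ruxolitinib at 48 h, 10 of 13 were lower and 0 higher (0 at an unadjusted p under 0.05 and 0 by DESeq2), with a median log2 fold change of -1.10. There 13.2% of all tested genes were called lower. This list, like those below, was chosen with earlier results of these data known, so its counts are a description only. The median of all tested genes lay between -0.0049 and 0.0066 in each comparison with DMSO. CCND1 (-5.34 ± 0.36, edgeR adjusted p = 2.11e-13) and DUSP6 (-3.37 ± 0.15, edgeR adjusted p = 1.37e-17) fell the most, beside -4.18 for ETV4 and -3.18 for ETV5. CCND1 was scarce, at 0.060 to 5.05 CPM and at most 186 counts in a library, so the size of its decrease rests on few reads. SPRED1 fell by less (-0.89 ± 0.06, edgeR adjusted p = 6.96e-14).

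At 48 h, 0.946%, 0.355%, 10.1% and 4.04% of all tested genes were called lower with momelotinib, itacitinib, pacritinib and fedratinib. CCND1 and DUSP6 were also the 2 ERK outputs called lower with momelotinib (-1.51 ± 0.23 and -0.73 ± 0.11, edgeR adjusted p = 3.38e-04 and 3.53e-04) and with itacitinib (-1.04 ± 0.22 and -0.50 ± 0.11, edgeR adjusted p = 0.0222 and 0.0275) at 48 h. The itacitinib count was 0 without DMSO replicate 1, DMSO replicate 2 or itacitinib replicate 2. Pacritinib at 48 h lowered 6, among them DUSP6 (-1.18 ± 0.12) and CCND1 (-2.11 ± 0.25), and raised FOSL1 (0.43 ± 0.08, edgeR adjusted p = 2.36e-04), with a median of -0.23. The 6 became 2 without pacritinib replicate 1 and 3 without DMSO replicate 2. Fedratinib at 48 h raised EGR1 (0.96 ± 0.12, edgeR adjusted p = 1.18e-06) and FOSL1 (0.28 ± 0.08, edgeR adjusted p = 0.0248) and lowered PHLDA1 (-0.52 ± 0.16, edgeR adjusted p = 0.0332), with a median of -0.05. Without DMSO replicate 2 or fedratinib replicate 1, 1 of these was raised and 0 were lowered.

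At 4 h, 11 of the 13 were lower with ruxolitinib (median -1.08), 10 with momelotinib (median -0.91) and 12 with pacritinib (median -0.92), while ETV4 and ETV5 were lower with all 3. Of all tested genes, 5.04%, 3.79% and 17.4% were called lower with these 3, and 0.97% and 0.106% with fedratinib and itacitinib. Leaving out 1 library lowered the ruxolitinib and momelotinib counts in every such fit, and the pacritinib count in some. Fedratinib lowered FOSL1 (-0.38 ± 0.08, edgeR adjusted p = 0.00903) and PHLDA1 (-0.42 ± 0.11, edgeR adjusted p = 0.0426), and itacitinib lowered SPRED1 (-0.23 ± 0.05, edgeR adjusted p = 0.0306). The fedratinib count was 0 without either DMSO replicate or fedratinib replicate 2 and 1 without fedratinib replicate 1, and the itacitinib count was 0 without either DMSO replicate or itacitinib replicate 2. In DMSO alone, CCND1 (1.22 ± 0.23, edgeR adjusted p = 6.09e-04) and DUSP6 (0.37 ± 0.11, edgeR adjusted p = 0.0352) were higher at 48 h than at 4 h, as ETV4 was, whereas PHLDA1 (-2.61 ± 0.13), SPRED1 (-0.29 ± 0.05), FOSL1 (-0.39 ± 0.08), EGR1 (-0.52 ± 0.12) and FOS (-1.07 ± 0.32) were lower. Without DMSO replicate 2 at 48 h the 5 became 2, and 1 was higher without any 1 of the 4 libraries compared.

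Of 24 other ETS genes, 19 were tested. ELF3, ELF5, EHF, SPIC and SPDEF, which reached at most 20 counts, were not. Ruxolitinib at 48 h lowered 7, led by FEV (-1.76 ± 0.10, edgeR adjusted p = 2.19e-15), and SPI1 (-0.47 ± 0.06, edgeR adjusted p = 2.47e-07), which encodes PU.1, a regulator of myeloid fate, and raised ELF1 (0.22 ± 0.05, edgeR adjusted p = 0.00101). Of all tested genes, 13.2% were called lower there. The median of the 19 ETS genes was -0.10. Among the called ones FEV alone passed 1 on the log2 scale. Fedratinib and pacritinib at 48 h lowered 6 each, both with ETS1 (-0.44 ± 0.05 each) as the lowest adjusted p, with medians of -0.10 and -0.12. Of all tested genes, 4.04% and 10.1% were called lower with these 2, and 0.946% with momelotinib at 48 h. Momelotinib at 48 h lowered SPI1 (-0.28 ± 0.06, edgeR adjusted p = 0.0106), a call lost without DMSO replicate 1 or momelotinib replicate 1.

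At 4 h, pacritinib lowered 7 of the other ETS genes, among them the ERK-controlled repressor ERF (-0.35 ± 0.06, edgeR adjusted p = 1.12e-05), and raised ELF1 (0.36 ± 0.05, edgeR adjusted p = 1.45e-06) and FLI1 (0.12 ± 0.04, edgeR adjusted p = 0.0222). Of all tested genes, 17.4% were called lower there. The 7 became 4 without DMSO replicate 1 or either pacritinib replicate, and 1 was raised without either DMSO replicate or pacritinib replicate 2. Momelotinib lowered ERF (-0.23 ± 0.06, edgeR adjusted p = 0.00786) and ETS2 (-0.16 ± 0.05, edgeR adjusted p = 0.0334) and raised ELF1 (0.20 ± 0.05, edgeR adjusted p = 0.0116). Ruxolitinib raised ELF1 (0.26 ± 0.05, edgeR adjusted p = 6.19e-04) and lowered ETS2 (-0.16 ± 0.05, edgeR adjusted p = 0.0209), and fedratinib lowered SPI1 (-0.22 ± 0.06, edgeR adjusted p = 0.0484). The fedratinib call was lost without any 1 of the 4 libraries compared, the ruxolitinib ETS2 call without DMSO replicate 2 or ruxolitinib replicate 2. The momelotinib calls lower were 0 without DMSO replicate 2 and 1 without momelotinib replicate 2, and ELF1 was not called without DMSO replicate 1 or momelotinib replicate 2. Of all tested genes, 3.79%, 5.04% and 0.97% were called lower with momelotinib, ruxolitinib and fedratinib at 4 h. Itacitinib gave 0 calls among the other ETS genes at either time by edgeR, beside 0.355% (48 h) and 0.106% (4 h) of all tested genes called lower. At 48 h the unadjusted p was under 0.05 for 2 lower and DESeq2 called 1, and at 4 h the numbers were 1 and 0.

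Genes that act on the PEA3 factors were listed as well. The list of 14 included the repressor CIC and its partners ATXN1 and ATXN1L, the COP1 ligase genes (COP1, DET1, DDB1, CUL4A, RBX1), the kinases MAPK3, MAP2K1 and MAP2K2, and the coactivators EP300 and CREBBP, and all 14 were tested. With ruxolitinib at 48 h 1 of the 14 was lower, beside 13.2% of all tested genes. This was CUL4A (-0.14 ± 0.05, edgeR adjusted p = 0.0242), and the median was -0.03. That call was lost without DMSO replicate 1, DMSO replicate 2 or ruxolitinib replicate 2, and with no low-count filter. Pacritinib lowered 3 at 4 h and 4 at 48 h, beside 17.4% and 10.1% of all tested genes. Pacritinib at 4 h lowered CIC (-0.40 ± 0.05, edgeR adjusted p = 2.87e-07), EP300 (-0.51 ± 0.08, edgeR adjusted p = 9.9e-06) and CUL4A (-0.14 ± 0.05, edgeR adjusted p = 0.0168) and raised DDB1 (0.13 ± 0.04, edgeR adjusted p = 0.018). The count of higher genes was 0 without DMSO replicate 1, and 3 with another scaling (RLE), DESeq2, the stricter low-count filter or the replicate block. At 48 h pacritinib lowered DDB1 (-0.16 ± 0.04, edgeR adjusted p = 0.0115), CUL4A (-0.15 ± 0.05, edgeR adjusted p = 0.0196), RBX1 (-0.24 ± 0.07, edgeR adjusted p = 0.021) and MAPK3 (-0.26 ± 0.09, edgeR adjusted p = 0.0452). These 4 became 0 without DMSO replicate 1 or pacritinib replicate 1 and 1 without DMSO replicate 2. In the other 7 comparisons with DMSO edgeR called 0 of the 14. The unadjusted p was under 0.05 for at most 3 in any of these, and DESeq2 called 1 with itacitinib at 48 h and 1 with ruxolitinib at 4 h.

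The listed direct targets of JAK-STAT signalling were the feedback genes CISH, SOCS1, SOCS2 and SOCS3, the kinases PIM1 and PIM2, and BCL2L1, BCL3 and OSM. Of all tested genes, ruxolitinib lowered 13.2% at 48 h and 5.04% at 4 h, and pacritinib 10.1% and 17.4%. The shares at 48 h and 4 h were 0.946% and 3.79% with momelotinib, 4.04% and 0.97% with fedratinib, and 0.355% and 0.106% with itacitinib. With ruxolitinib 8 of the 9 listed targets were lower at 48 h (median -0.55) and 9 at 4 h (median -1.76), whereas ETV4 and ETV5 had the larger decrease at 48 h. For the 13 tested ERK outputs, the ruxolitinib change at 48 h minus that at 4 h had a median of -0.08. Of these 13, 2 were called lower, 1 higher and 10 not called, beside 4.4% of all tested genes called lower. At 48 h BCL3 had -2.09 ± 0.17, SOCS3 -1.69 ± 0.13 and PIM1 -0.69 ± 0.05 (edgeR adjusted p = 8.17e-12, 8.09e-12 and 5.47e-12). With pacritinib 5 were higher at 48 h (median 0.15), OSM (1.35 ± 0.17, edgeR adjusted p = 3.8e-07), CISH (0.43 ± 0.07), SOCS3 (0.46 ± 0.12), SOCS2 (0.31 ± 0.08) and PIM1 (0.15 ± 0.05), while ETV4 and ETV5 were lower there, and all 9 were lower at 4 h (median -0.69). The 5 became 3 without either DMSO replicate or pacritinib replicate 2. Momelotinib lowered 7 at 4 h (median -0.58), with SOCS2 (-0.20, edgeR adjusted p = 0.147) and OSM (-0.30, edgeR adjusted p = 0.37) not called, and gave 0 calls at 48 h, where the unadjusted p was under 0.05 for 2 higher and DESeq2 called 0. Fedratinib at 4 h lowered PIM2 (-0.35 ± 0.06), BCL3 (-0.79 ± 0.13), BCL2L1 (-0.22 ± 0.04) and SOCS1 (-0.60 ± 0.16), and at 48 h raised BCL2L1 (0.22 ± 0.04, edgeR adjusted p = 0.00148) and PIM2 (0.22 ± 0.06, edgeR adjusted p = 0.0153) and lowered BCL3 (-0.62 ± 0.14, edgeR adjusted p = 0.00523). The 4 became 2 without DMSO replicate 2 or either fedratinib replicate. At 48 h 1 was raised without any 1 of the 4 libraries compared, and BCL3 was not called without DMSO replicate 1 or fedratinib replicate 2. Itacitinib gave 0 edgeR calls at both times, with 2 lower at an unadjusted p under 0.05 at 48 h, 2 lower and 1 higher at 4 h, and 0 DESeq2 calls at 48 h and 1 at 4 h.

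The genes most like each member were ranked by Pearson r over the 12 group means of log2 CPM, among 427 or 428 genes of sufficient level and spread. ETV5 was closest to ZYX, the focal adhesion protein zyxin (r = 0.977), then FOXB1 and RFLNB (0.975 each), the platelet protein gene MMRN1 (0.97) and the phosphatase gene UBASH3B (0.969). For ETV4 the closest were ZYX and the monoamine transporter gene SLC18A2 (0.97 each), RFLNB (0.963), ETV5 itself (0.961) and FEV (0.96). These values rest in part on the group with ruxolitinib for 48 h. Over the other 11 groups r with ETV5 was 0.859 for ZYX, 0.858 for FOXB1, 0.843 for RFLNB, 0.935 for MMRN1 and 0.942 for UBASH3B, which put ZYX at rank 21 and UBASH3B at rank 2. With ETV4 it was 0.798 for ZYX, 0.656 for RFLNB, 0.759 for ETV5, 0.626 for SLC18A2 and 0.353 for FEV. ETV1 was most like CCR4 (0.917) and GJA5 (0.916), followed by IL21R (0.894), CDC42EP2 (0.891) and KCNK6 (0.888), with 0.902 and 0.901 for CCR4 and GJA5 over 11 groups. Over the 24 libraries CCR4 had 0.752 (rank 14) and GJA5 0.826 (rank 1). By Spearman rho these 5 genes came at ranks 3, 5, 15, 27 and 65 for ETV1. The 5 named for ETV5 came at ranks 1, 6, 10, 14 and 10. For ETV4, ZYX came at rank 11, SLC18A2 at 79, RFLNB at 39, ETV5 at 15 and FEV at 128. ETV1 had r = 0.54 with ETV4 and 0.649 with ETV5, and 0.643 and 0.772 over the 11 groups without ruxolitinib at 48 h. With ruxolitinib at 48 h UBASH3B fell by 2.36 ± 0.06, MMRN1 by 1.03 ± 0.08 and ZYX by 1.22 ± 0.05 on the log2 scale (edgeR adjusted p = 5.07e-25, 1.26e-12 and 1.25e-17). These genes were picked for likeness to ETV5 over groups that include this one. Their decreases and p-values are therefore a description, not a separate result. All groups share the fit and each time its DMSO libraries, and no p is given for these correlations.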

How the data were processed

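RNA of HEL cells was sequenced in 24 libraries. Per the submitters' processing notes, reads were handled with bcl2fastq, STAR 2.5.1a, GRCh38 and edgeR. The authors deposited 1 table of whole-number read counts per gene; how reads were assigned to genes, and whether by strand, is not given in the sources used here. Of its 34343 rows, 130 repeated an identifier and were removed. Here, edgeR 4.0.16 with limma 3.58.1 in R 4.3.3 fitted 1 mean per group to all 24 libraries (quasi-likelihood test, filterByExpr, TMM scaling, 12 residual degrees of freedom, common biological coefficient of variation 0.0468), in 36 comparisons. P-values were adjusted by Benjamini-Hochberg over the 16076 tested genes. The SE was the absolute log2 fold change over the square root of F. CPM use TMM library sizes, and RPKM divide CPM by exon length in GENCODE 29.

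Alternatives were DESeq2 1.42.0, RLE scaling, no filter, a stricter filter (1 CPM in 6 libraries), a fit of 1 time point, a replicate block, each library left out, total-count scaling of levels, and Spearman or library-level likeness; likeness without ruxolitinib at 48 h was added after seeing the data. Where leaving one out left a group with 1 library, that library was taken to vary as much as those of other groups. The edgeR test of ruxolitinib against DMSO at 4 h was also run on simulated counts. These were drawn with the spread that edgeR estimated here, so they cannot show whether that spread is right for these replicates. Named genes were the 3 members, up to 4 genes per list by adjusted p (or those that make up a count of 5 or fewer), and the 5 genes most like each member (mean log2 CPM 2 or more, SD 0.3 or more). The members and the lists (ERK outputs, other ETS genes, genes acting on PEA3 factors, JAK-STAT targets) were chosen with earlier results of these data known. Some genes of these lists and of the cell type markers are not reported here by name. Proteins of the members were not analysed here.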

Additional observations from a re-analysis of the deposited data

Results flagged for a closer look

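A difference between the 2 times was found in 4 results, each tested as the change against DMSO at 48 h minus that at 4 h in edgeR. With ruxolitinib it was -3.71 for ETV4 (edgeR adjusted p = 6.72e-14) and -1.98 for ETV5 (edgeR adjusted p = 8.16e-13), that is, a deeper decrease at 48 h. In ETV5 it was 0.73 with momelotinib (edgeR adjusted p = 6.69e-05) and 0.40 with pacritinib (edgeR adjusted p = 0.00739), that is, a smaller decrease at 48 h. The pacritinib value was 0.32 to 0.48 with 1 library left out and lost its call in 2 of 8 such fits. Groups of 2 libraries are too small for a check of single libraries that stand apart.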

How the results depend on the processing

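Of 33 results on the members against DMSO or over time, 186 of 192 values under other settings kept direction and side of the threshold. The other 6 gained a call: ETV1 with pacritinib at 48 h (-0.73 with DESeq2, -0.72 with no low-count filter, -0.71 with 1 time point), and, with no low-count filter, ETV1 with fedratinib at 48 h (-0.70), ETV1 with pacritinib at 4 h (-0.69) and ETV4 with itacitinib at 48 h (-0.38). Leaving out 1 library changed 20 of 132 values (18 lost and 1 gained a call, 1 reversed). The affected log2 fold changes ranged from -0.58 to -0.35 (ETV4, ruxolitinib 4 h), -0.55 to -0.29 (ETV4, momelotinib 4 h), 0.34 to 0.43 (ETV4, DMSO over time), -0.40 to -0.34 (ETV5, fedratinib 4 h), -0.57 to -0.44 (ETV5, itacitinib 4 h), -0.42 to -0.24 (ETV5, itacitinib 48 h), -0.43 to -0.29 (ETV5, momelotinib 48 h), -1.41 to -0.29 (ETV1, pacritinib 48 h) and -0.13 to 0.40 (ETV1, fedratinib 4 h). These fits have fewer libraries.

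Among pairs and time differences, those that changed sign without 1 library were not called with all libraries. They ranged from -0.32 to 0.56 (ETV1) and -0.18 to 0.080 (ETV4) for ruxolitinib against momelotinib, -0.24 to 0.64 and -0.14 to 0.082 for ruxolitinib against pacritinib, and -0.050 to 0.22 and -0.11 to 0.16 for momelotinib against pacritinib, all at 4 h. Others at 4 h were ETV1 for fedratinib against itacitinib (-0.38 to 0.14) and ETV4 for fedratinib against momelotinib (-0.030 to 0.23). At 48 h they were ETV1 for fedratinib (-0.41 to 0.71), momelotinib (-0.12 to 1.00) and ruxolitinib (-0.98 to 0.14) against pacritinib and for pacritinib against itacitinib (-1.04 to 0.078), ETV4 for momelotinib against pacritinib (-0.097 to 0.43) and ETV5 for momelotinib against itacitinib (-0.12 to 0.057). The ETV1 pacritinib difference between times ranged from -0.71 to 0.41. The cause was not tested.

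The labels do not say that replicate numbers mark a shared culture. Deviations of same-numbered libraries correlated at -0.038 to 0.048 over 66 pairs of groups. These correlations cover all tested genes and include counting noise, so they cannot decide whether the numbers pair the libraries. With the replicate block, 333 genes were called for fedratinib at 4 h (255 without it) and 420 for momelotinib at 48 h (312), against DMSO. The itacitinib difference between times stayed at 2. With the replicate block, the ETV1 pacritinib difference between times was 0.0053, ETV5 between momelotinib and pacritinib at 48 h was called (0.24, edgeR adjusted p = 0.0477), and no other call on the members changed.

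Counts of genes called moved by over 1.5 times in some settings. They were 255 (110 to 416) for fedratinib and 125 (55 to 203) for itacitinib at 4 h, and 312 (306 to 533) for momelotinib and 71 (69 to 189) for itacitinib at 48 h, against DMSO. Between inhibitors they were 42 (16 to 247) for fedratinib and 443 (274 to 634) for momelotinib against itacitinib, 226 (136 to 383) for fedratinib and 116 (60 to 186) for ruxolitinib against momelotinib at 4 h, and 162 (166 to 432) for momelotinib against itacitinib at 48 h. The itacitinib difference between times went from 2 to 50. Leaving out 1 library gave lower counts in most fits. Against DMSO at 48 h they were 2733 to 3055 (4137 with all libraries) for ruxolitinib, 355 to 950 (1238) for fedratinib, 25 to 77 (312) for momelotinib, 1492 to 2185 (2948) for pacritinib and 0 to 70 (71) for itacitinib. At 4 h they were 730 to 883 (1361) for ruxolitinib, 39 to 154 (255) for fedratinib, 453 to 759 (965) for momelotinib, 3237 to 3980 (4914) for pacritinib and 2 to 196 (125) for itacitinib. For DMSO at 48 h against 4 h they were 494 to 682 (1312). Among the listed genes, fedratinib at 48 h lowered 2 ERK outputs, not 1, with DESeq2, RLE scaling, the stricter filter or the replicate block, and ruxolitinib at 4 h raised 1 gene acting on PEA3 factors, not 0, with these or no filter. RLE scaling moved none of the 36 mean levels beyond their spread, total counts 5.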
